A study of Mus musculus with 12 samples.

Results

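The nuclear genes for subunits of mitochondrial complex I were examined in heart muscle cells. The set was taken from the array annotation as the genes whose symbol starts with Ndufa, Ndufb, Ndufc, Ndufs or Ndufv, without the Ndufaf assembly factors. Of 36 such genes, 35 met a detection filter (p under 0.01, reached by 3 or more of the 12 arrays), among 8746 genes that met this filter in all. All 35 were detected on each of the 12 arrays, so none of them entered through 1 group alone. The probe for Ndufs1, which encodes a core subunit that carries iron-sulphur clusters, was detected on 0 arrays and has no level here. By the rule the set also holds Ndufa4, a subunit now assigned to complex IV, and Ndufs5-ps, which carries the name of a pseudogene of Ndufs5 and may share signal with it.

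Adult cardiomyocytes came from left ventricles of male C57Bl6/J mice with a labelled age of 8 weeks, and their total RNA was hybridised to 1-colour Illumina bead arrays. All animals had received virus at 10 days of age: AAV9, a vector that enters heart muscle, with a scrambled shRNA (AAV9-scr, called shControl here) or with the hairpin sh-Uhrf1 #1 (called shUhrf1), directed against the DNA methylation cofactor Uhrf1. Surgery followed after 2 months: either a sham operation or TAC (transverse aortic constriction), in which a band narrows the aortic arch and the left ventricle has to pump against higher pressure. Cells were taken 1 week later. The labelled age is shorter than these times add up to, and both are given as labelled. The groups sham shControl, TAC shControl, sham shUhrf1 and TAC shUhrf1 held 3 arrays each. The comparison rests on 1 hairpin sequence, the promoter driving it is not given in the sources used here, and there was no group without virus. Whether arrays within a group stood for different animals is not stated, and the p-values therefore reflect array-to-array spread that may be technical.

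Complex I takes electrons from NADH, passes them along iron-sulphur clusters to ubiquinone and pumps protons across the inner mitochondrial membrane. It is L-shaped: the matrix arm consists of the N module, where NADH is oxidised, and the Q module, where quinone is reduced, and the membrane arm has a proximal and a distal part. The core subunits of the matrix arm and all accessory subunits are encoded in the nucleus, and the membrane core is encoded by the mitochondrial ND genes. In heart muscle, which lives largely on fatty acid oxidation, it is the main entry point of electrons into the respiratory chain.

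Between 12309 and 14908 probes were detected per array, and arrays of a group correlated at 0.98 to 0.99 over the probes that passed the filter. The 11 cardiomyocyte markers were detected in every group, and 0 of them passed the test in each of the 4 comparisons between groups. In the averaged comparisons described further on, 3 of them passed, and their values stand there. All 10 measured macrophage markers were detected in every group as well, so detection alone does not show which cells the samples held. The hairpin could be checked only after TAC. Uhrf1 was detected on 0 of 3 arrays in sham shControl and 0 of 3 in sham shUhrf1, on 3 of 3 in TAC shControl and on 2 of 3 in TAC shUhrf1. Its log2 intensity was 6.14, 7.11 and 6.89 in TAC shControl against 4.68, 5.34 and 6.06 in TAC shUhrf1. The groups did not overlap, and Uhrf1 was lower with the shUhrf1 hairpin, with a log2 difference of -1.35 ± 0.30 (SE, n = 3 against 3, limma, Benjamini-Hochberg adjusted p = 0.0355).

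RefSeq promoters (GRCm38.p6, 300 bases each, most of them upstream of a gene's start) were at hand for 32 of the 35 genes, which had 34 in all. They were compared for CpG dinucleotides, the sites whose methylation Uhrf1 helps to maintain, and for the cores of factors that act on respiratory genes. The 34 promoters held a median of 19.5 CpG dinucleotides (range 8 to 39) and 59.2% G and C, against medians of 7 and 52.7% over all 32851 promoters. The NRF1 core GCGCANGCG, searched on both strands, lay in 8 of the 34 (23.5%), against 6.25% of all promoters. These 8 belong to Ndufa11, Ndufa5 (both of its starts), Ndufa6, Ndufa8, Ndufb10, Ndufb4 and Ndufs6. The ETS core CCGGAAGT lay in 1 (2.94%, Ndufs3) against 3.89%, and the ERR core TCAAGGTCA in 0 against 0.423%. The NRF1 core contains CpG dinucleotides itself, and its share was not adjusted for their higher number in these promoters. Letters in a window of this length are a description and do not show binding, and methylation was not measured here. The promoters of 4 genes are printed 5′ to 3′ because the genes are described in detail below. Ndufa12 fell after TAC in shControl, and Ndufa6 fell only in the average of both TAC comparisons. Ndufb4 rose with the shUhrf1 hairpin after TAC, and Ndufb2, the next largest difference there, passed in no hairpin comparison. Capitals mark the NRF1 core or its reverse complement.

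Ndufa12 promoter, chr10:94198785-94199084, plus strand, GRCm38.p6: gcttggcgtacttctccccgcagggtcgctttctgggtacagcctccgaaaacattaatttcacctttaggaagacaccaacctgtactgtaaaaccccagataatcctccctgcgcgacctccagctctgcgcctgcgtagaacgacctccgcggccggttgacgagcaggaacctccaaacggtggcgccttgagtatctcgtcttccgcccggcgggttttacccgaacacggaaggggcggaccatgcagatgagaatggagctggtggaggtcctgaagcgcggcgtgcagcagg
Ndufa6 promoter, chr15:82354242-82354541, minus strand, GRCm38.p6: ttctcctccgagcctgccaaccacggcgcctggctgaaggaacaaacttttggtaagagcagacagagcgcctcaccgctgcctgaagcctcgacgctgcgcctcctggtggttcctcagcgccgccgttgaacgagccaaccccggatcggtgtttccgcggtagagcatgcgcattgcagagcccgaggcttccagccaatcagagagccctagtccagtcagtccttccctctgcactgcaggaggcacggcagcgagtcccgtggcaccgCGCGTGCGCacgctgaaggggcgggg
Ndufb4 promoter, chr16:37654319-37654618, minus strand, GRCm38.p6: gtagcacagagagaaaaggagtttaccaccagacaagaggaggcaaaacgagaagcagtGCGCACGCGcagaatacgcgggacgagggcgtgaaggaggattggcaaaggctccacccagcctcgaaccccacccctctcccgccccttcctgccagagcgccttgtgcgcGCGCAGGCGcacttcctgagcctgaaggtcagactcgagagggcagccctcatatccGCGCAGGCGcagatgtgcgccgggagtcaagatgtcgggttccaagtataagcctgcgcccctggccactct
Ndufb2 promoter, chr6:39592315-39592614, plus strand, GRCm38.p6: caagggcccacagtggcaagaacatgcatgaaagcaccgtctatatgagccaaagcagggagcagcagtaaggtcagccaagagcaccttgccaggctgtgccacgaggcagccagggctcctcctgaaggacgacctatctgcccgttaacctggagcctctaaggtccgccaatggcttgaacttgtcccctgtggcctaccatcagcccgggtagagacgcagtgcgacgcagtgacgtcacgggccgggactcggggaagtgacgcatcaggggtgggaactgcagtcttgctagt

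The Ndufb4 promoter held 3 NRF1 cores and 23 CpG dinucleotides, the Ndufa6 promoter 1 core and 27, and those of Ndufa12 and Ndufb2 no core with 25 and 14. These promoters belong to genes picked from different comparisons. Whether the core goes with the direction or size of a gene's difference was not tested.

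The response to pressure load was read as TAC against sham, first with the scrambled hairpin. In shControl cells most complex I genes lay slightly below sham after TAC, and only Ndufa12 passed the test. Of the 35 genes, 33 had a log2 difference below 0, from -0.53 to 0.15 with a median of -0.18, while 54.5% of all genes tested lay below 0 and their median was -0.04. By limma with Benjamini-Hochberg adjustment over all probes tested, at an adjusted p under 0.05, 1 gene fell and 0 rose, against a background of 18.9% of all genes called in either direction. At an unadjusted p under 0.05 it was 6 genes, all lower, against 33.8% of all genes. Under this normalization the count of calls among the complex I genes was therefore below the background, and the pattern was many small differences with the same sign. With arrays scaled by the median of their detected probes, the count lay above the 24.0% of all genes called. The differences were then larger, as given further on. In these bulk samples fewer cells of a type and less RNA per cell cannot be told apart.

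**Figure D1:**
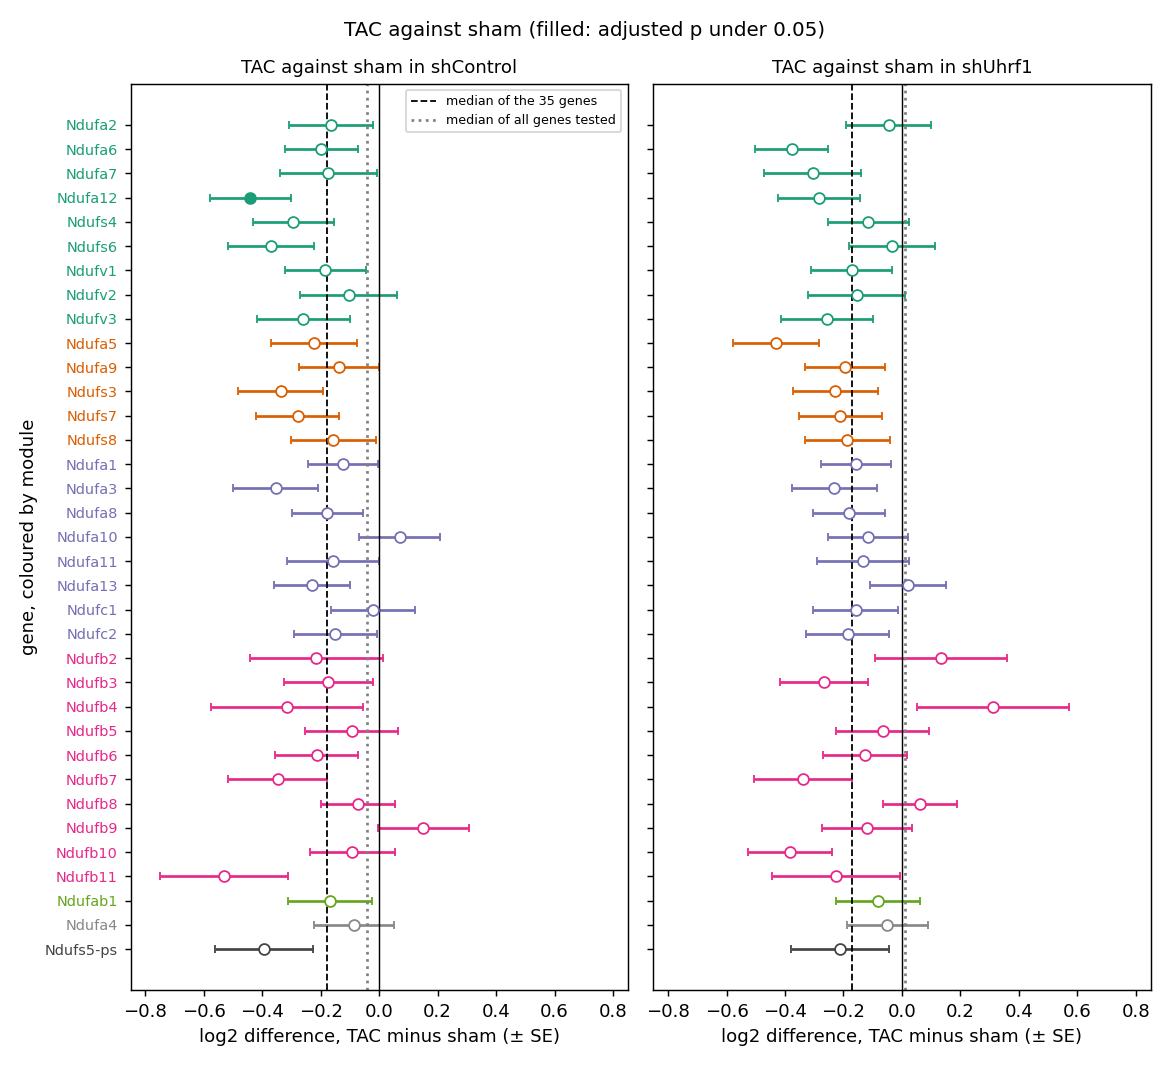
Log2 difference of TAC minus sham (horizontal axis) for the 35 genes (vertical axis, coloured by module) in shControl (left) and shUhrf1 (right); points are limma estimates from 3 against 3 arrays, bars are ± SE and a filled point passed at an adjusted p under 0.05. The gene set's median (dashed) lies at -0.18 and -0.17, left of the median of all genes (dotted) at -0.04 and 0.01.

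Ndufa12, an accessory subunit of the N module that takes the place of an assembly factor late in assembly, had log2 intensities of 12.84, 12.69 and 12.89 in sham shControl and of 12.39, 12.45 and 12.26 in TAC shControl. The 3 TAC arrays all lay below the 3 sham arrays. Ndufa12 fell by 0.44 on the log2 scale (-0.44 ± 0.14, SE, 1.36-fold lower, adjusted p = 0.0458). In shUhrf1 cells its values were 12.66, 12.67 and 12.85 after sham and 12.21, 12.49 and 12.62 after TAC. These groups did not overlap either, and the difference was -0.28 ± 0.14 with an adjusted p of 0.257. The call in shControl was close to the threshold: when each of the 12 arrays was left out in turn it held only without TAC shUhrf1 replicate 1 or 3 (adjusted p = 0.0324 and 0.0359), and the adjusted p was 0.0527 to 0.152 without any of the other 10, although the difference stayed between -0.50 and -0.38.

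Among the other N module genes, Ndufs6, a zinc-binding accessory subunit, had the next smallest p after TAC in shControl. Its values were 14.77, 14.40 and 14.64 in sham shControl and 14.37, 14.27 and 14.06 in TAC shControl. The groups lay apart by a narrow margin, with a difference of -0.37 ± 0.15 (adjusted p = 0.101). In shUhrf1 cells Ndufs6 differed by -0.03 ± 0.15. Ndufv1, the core subunit that binds NADH and flavin, differed by -0.18 ± 0.14 in shControl (adjusted p = 0.389) and by -0.17 ± 0.14 in shUhrf1 (adjusted p = 0.493), with overlapping arrays. Its intensities were 14.26, 14.33 and 14.04 in sham shControl and 13.95, 14.15 and 13.98 in TAC shControl. Ndufv2, the core subunit next to it, differed by -0.10 ± 0.17 and -0.16 ± 0.17. Over the N module, 9 of 9 genes lay below 0 in each hairpin group, with medians of -0.20 in shControl and -0.17 in shUhrf1.

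The Q module held the other core subunits that were measured. Ndufs3 had values of 13.01, 13.23 and 13.02 in sham shControl and 12.82, 12.80 and 12.62 in TAC shControl. The groups did not overlap, and the difference of -0.34 ± 0.15 missed the threshold (adjusted p = 0.130). Ndufs7, which carries the last iron-sulphur cluster before quinone, differed by -0.28 ± 0.14 in shControl and by -0.21 ± 0.14 in shUhrf1. Ndufs8, which carries the clusters before it, differed by -0.16 ± 0.15 and by -0.19 ± 0.15. Neither passed in either hairpin group, and the 95% interval for Ndufs7 in shControl was -0.58 to 0.03. All 5 Q module genes lay below 0 in both hairpin groups, with medians of -0.22 and -0.21.

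Of the membrane arm, 7 of 8 proximal and 9 of 10 distal genes lay below 0 in shControl, with medians of -0.15 and -0.19. The exceptions were Ndufa10, which resembles a nucleoside kinase, at 0.07 ± 0.14, and Ndufb9, a member of the LYR-motif family, at 0.15 ± 0.15. The lowest estimate of all belonged to Ndufb11, an X-linked membrane subunit, with values of 7.22, 6.81 and 7.02 in sham shControl and of 6.86, 6.39 and 6.20 in TAC shControl. The groups overlapped, and the difference was -0.53 ± 0.22 (adjusted p = 0.111). Leaving out TAC shControl replicate 1 brought it past the threshold at -0.72 (adjusted p = 0.0475). The Ndufb11 intensities before normalization were low, at 192.8, 162.4 and 180.9 in sham shControl and 199.9, 139.6 and 198.3 in TAC shControl. Its dimmer probe gave -0.05. Ndufab1, the mitochondrial acyl carrier protein that also serves fatty acid synthesis, differed by -0.17 ± 0.14, Ndufa4 by -0.09 ± 0.14 and Ndufs5-ps by -0.39 ± 0.17 (adjusted p = 0.121).

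In shControl the 3 TAC arrays lay wholly below the 3 sham arrays for 10 of the 35 genes (Ndufa12, Ndufa13, Ndufa3, Ndufa6, Ndufab1, Ndufs3, Ndufs4, Ndufs6, Ndufs8 and Ndufv3) and wholly above for 0. Over all genes 19.3% were separated downward and 19.2% upward.

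In shUhrf1 cells the direction was again mostly downward under the normalization used, and no gene passed. After TAC 31 of 35 genes lay below 0, against 48.7% of all genes, with a median of -0.17 for the set and 0.01 for all genes. The sign of that median depended on the scaling: with each array divided by its own median it was 0.15, while all genes then had a median of 0.45. By limma, 0 genes were called, against 5.55% of all genes, and 3 had an unadjusted p under 0.05, all lower, against 22.5%. The 3 were Ndufa6, Ndufa5 and Ndufb10. The arrays separated downward for 12 genes and upward for 0, against 13.2% and 15.6% of all genes.

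Ndufa6, an N module subunit of the LYR-motif family that docks an acyl carrier protein, had values of 13.16, 13.32 and 13.23 in sham shUhrf1 and of 12.81, 13.02 and 12.75 in TAC shUhrf1. All TAC arrays lay below the sham arrays, and the difference was -0.38 ± 0.13 (adjusted p = 0.101). Ndufa5, a small peripheral subunit of the Q module, had values of 13.66, 13.78 and 13.95 against 13.34, 13.57 and 13.19 and differed by -0.43 ± 0.15 (adjusted p = 0.112). Its dimmer probe gave 0.0040. Ndufb10, a distal subunit on the intermembrane-space side, had values of 12.58, 12.74 and 12.71 against 12.04, 12.48 and 12.36. Its arrays did not overlap and the difference was -0.38 ± 0.14 (adjusted p = 0.146). When each array was scaled by its median, Ndufa6 moved to -0.02 and Ndufa5 to -0.10, and the sign of Ndufb10 turned to 0.02. The 4 genes above 0 were Ndufa13, Ndufb2, Ndufb4 and Ndufb8, with Ndufb4 the highest at 0.31 ± 0.26 (adjusted p = 0.514).

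The TAC comparisons in shControl and shUhrf1 share no array. In both, 29 of the 35 genes (82.9%) lay below 0, against 37.3% of all genes, 0 lay above 0 in both, against 34.2%, and 6 had opposite signs. These 35 genes share arrays and RNA, so the count says how they lay on these 12 arrays and is not a test.

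**Figure D2:**
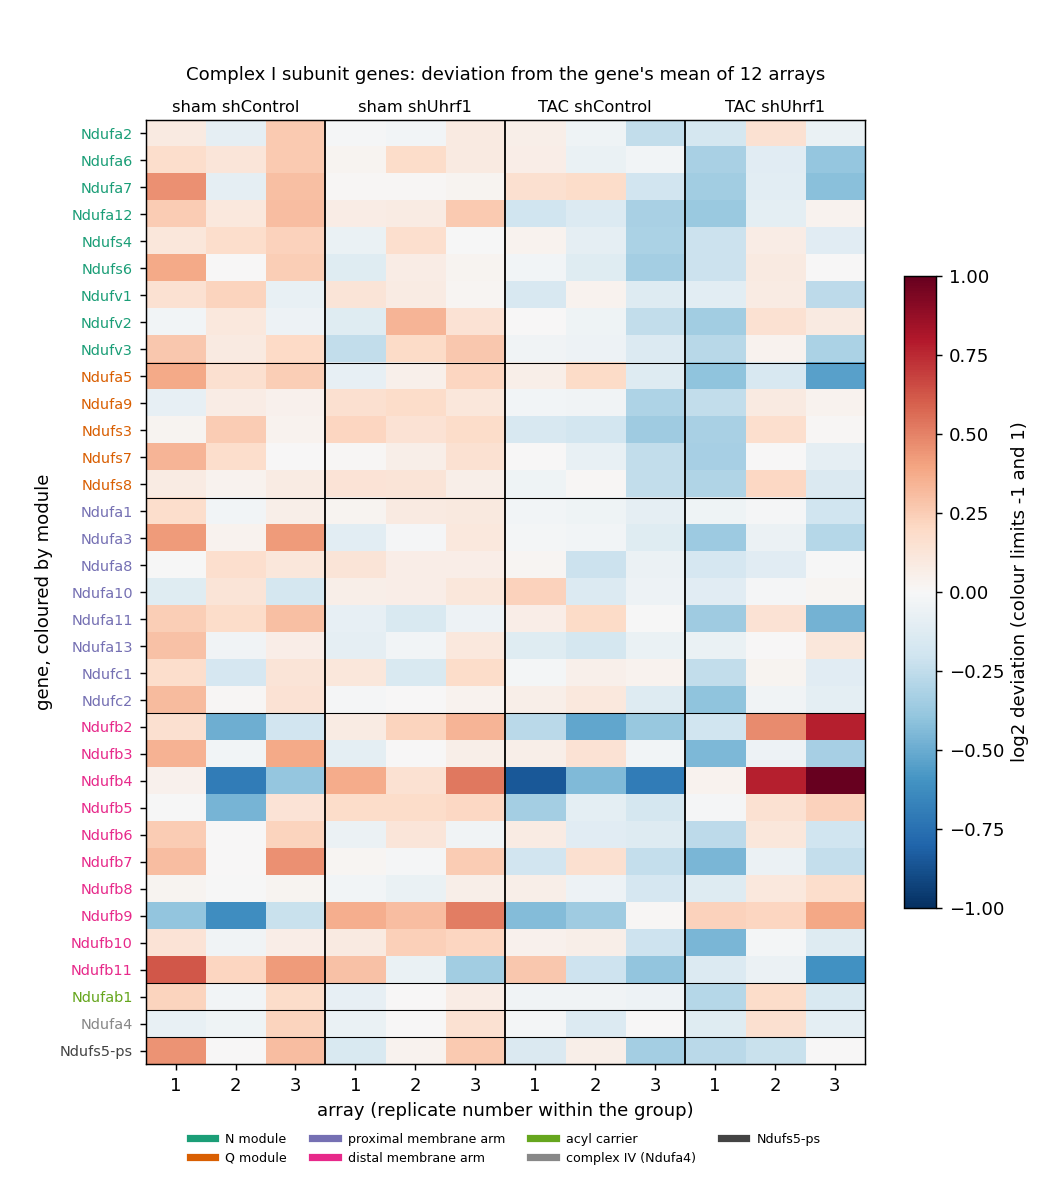
Deviation of each of the 35 genes (rows, by module) from its own mean over the 12 arrays (columns, 3 per group), in log2 units, with colours capped at -1 and 1. Most rows are lighter or red in sham shControl and blue in TAC shUhrf1 replicate 1, where 33 genes lie below their mean. Ndufb4, Ndufb9 and Ndufb2 have higher group means with shUhrf1 in each surgery, with overlapping sham arrays for Ndufb2.

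The arrays of a group were not alike in this respect. The median deviation of the 35 genes from their own means was 0.17, 0.01 and 0.15 in sham shControl and -0.02, -0.05 and -0.16 in TAC shControl. It was 0.01, 0.07 and 0.11 in sham shUhrf1 and -0.26, 0.04 and -0.10 in TAC shUhrf1. The groups did not overlap in shControl, whereas TAC shUhrf1 replicate 2 lay above sham shUhrf1 replicate 1. TAC shUhrf1 replicate 1 had the lowest value of the 12, and without it the set's median for TAC in shUhrf1 moved from -0.17 to -0.09.

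When the TAC difference was averaged over both hairpins, a comparison added after the data were seen, 34 of the 35 genes lay below 0 with a median of -0.17, against 52.3% of all genes and a median of -0.01. The exception, Ndufb9, stood at 0.02 ± 0.11. In this comparison 4 genes fell and 0 rose. Over all genes 27.2% were called in either direction, with 1019 of 8746 lower and 1359 higher. At an unadjusted p under 0.05 it was 11 genes, all lower, against 39.5% of all genes. Ndufa12 fell by 0.36 (-0.36 ± 0.10, SE, n = 6 against 6, adjusted p = 0.0175). Ndufa6 fell by 0.29 (-0.29 ± 0.09, adjusted p = 0.0304) and Ndufa5 by 0.33 (-0.33 ± 0.10, adjusted p = 0.0358). Ndufb7, a distal subunit held by disulphide bonds in the intermembrane space, fell by 0.34 (-0.34 ± 0.12, adjusted p = 0.0498). Its values were 11.22, 10.92 and 11.37 in sham shControl, 10.72, 11.07 and 10.67 in TAC shControl, 10.93, 10.90 and 11.16 in sham shUhrf1 and 10.46, 10.85 and 10.67 in TAC shUhrf1. With 1 array left out, Ndufa12 passed in 12 of 12 fits. Ndufa6 passed in 5 of 12, those without sham shControl replicate 1 or 2, TAC shControl replicate 1, sham shUhrf1 replicate 1 or TAC shUhrf1 replicate 2, and reached an adjusted p of 0.0762 in the others. Ndufa5 passed in 4, those without sham shControl replicate 2, TAC shControl replicate 2, sham shUhrf1 replicate 1 or TAC shUhrf1 replicate 2, and reached 0.0872. Ndufb7 passed in 3, those without replicate 2 of sham shControl, TAC shControl or TAC shUhrf1, and reached 0.117. With each array scaled by its median 0 genes passed, against 35.3% of all genes called. With each scaled by the median of its detected probes 30 passed, all lower, against 30.4% of all genes called in either direction. Among the cardiomyocyte markers Tnni3, the cardiac troponin I, also fell in this average (-0.36 ± 0.11, adjusted p = 0.0369), and its part in these values was not tested.

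Markers of other cells moved with TAC and are given beside these results. In shControl 10 of 10 measured fibroblast markers rose after TAC (median log2 difference 2.46), as did 9 of 11 endothelial markers (1.47), 3 of 10 macrophage markers (0.77) and 2 of 5 smooth muscle markers (0.62), and 0 of 4 red blood cell and 0 of 2 other leukocyte markers passed. The summed linear intensity of the fibroblast markers per array ranged between 2110 and 3597 in sham shControl, 8036 and 10780 in TAC shControl, 1690 and 5421 in sham shUhrf1 and 5782 and 10150 in TAC shUhrf1. That of the endothelial markers ranged between 1853 and 2330, 4357 and 8557, 1183 and 3543, and 2137 and 2944 in the same order of groups, and that of the macrophage markers between 2695 and 3540, 5059 and 6716, 1277 and 3493, and 3953 and 6708. In shUhrf1 5 of 10 fibroblast, 1 of 11 endothelial and 3 of 10 macrophage markers rose. The 11 cardiomyocyte markers summed to between 211600 and 221800 in sham shControl, 222200 and 227400 in TAC shControl, 232000 and 233000 in sham shUhrf1 and 203700 and 226700 in TAC shUhrf1. Kdr, Ddr2, Postn, Itgam, Cnn1 and Tagln, which also mark these cells, did not meet the detection filter. The part of these cells in the lower complex I values was not tested.

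The rest of the respiratory chain and its regulators give the surroundings of the set. In shControl after TAC, assembly factors had a median log2 difference of -0.23 over 15 genes, of which 2 fell: Ndufaf8 by 0.54 (-0.54 ± 0.15, adjusted p = 0.0239) and Ndufaf5, a methyltransferase-family assembly factor that modifies Ndufs7, by 0.41 (-0.41 ± 0.13, adjusted p = 0.0443). Complex II had 1 of 3 lower, Sdhc, a membrane anchor, at -0.51 ± 0.15 (adjusted p = 0.0318). Complex III had 1 of 7 lower, Uqcrq, at -0.74 ± 0.18 (adjusted p = 0.0155). None of 13 complex IV genes (median -0.14, 11 below 0) and none of 16 complex V genes (median -0.14, 16 below 0) passed. In shControl, the complexes with nuclear subunits other than complex III (-0.06 over 7 genes) thus had medians near that of complex I. The median of complex II, -0.18, rests on 3 genes. In shUhrf1 after TAC, medians were -0.24 for complex II, -0.09 for complex III, 0.01 for complex IV and -0.06 for complex V. That of the assembly factors was -0.08 and that of the complex I genes -0.17. The sets were not tested against each other.

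Of 15 regulators of mitochondrial genes, 5 fell after TAC in shControl and 0 rose. They were the nuclear receptors Ppara, a driver of fatty acid oxidation genes (-0.81 ± 0.19, adjusted p = 0.0130), and Esrrg (-0.51 ± 0.16, adjusted p = 0.0445), the GABP subunits Gabpa (-0.56 ± 0.18, adjusted p = 0.0484) and Gabpb2 (-0.75 ± 0.18, adjusted p = 0.0136), and Tfb1m, a methyltransferase of mitochondrial ribosomal RNA (-0.62 ± 0.18, adjusted p = 0.0319). Nrf1, whose core lies in 8 of the promoters, differed by -0.09 ± 0.16 and Ppargc1a, its coactivator, by 0.41 ± 0.25 (adjusted p = 0.272). In shUhrf1 after TAC none of the 15 passed, and among these lists only Uqcrq was lower again (-0.76 ± 0.18, adjusted p = 0.0341).

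With the hairpin against Uhrf1 the complex I genes lay on both sides of 0, and only Ndufb4 passed the test, after TAC. In sham cells 23 of the 35 genes lay below 0, against 50.4% of all genes, with a median of -0.08 against -0.00. By limma 0 genes were called, against 0.0457% of all genes, and 2 had an unadjusted p under 0.05, both higher, against 13.2%. After TAC 20 of 35 lay below 0, against 47.9%, with medians of -0.02 and 0.01. The set's median depended on the scaling: with each array scaled by its median it was -0.18 in sham and 0.34 after TAC, and with the median of detected probes -0.27 and 0.10. All genes then had medians of 0.05 and 0.28, and of -0.05 and 0.03. The 10 distal membrane arm genes split into 5 below and 5 above 0 in sham and again after TAC, with medians of 0.05 and 0.02. Here 1 gene rose and 0 fell, against 2.89% of all genes called, and 5 had an unadjusted p under 0.05, of which 3 were higher, against 19.3%. The arrays separated downward for 1 gene and upward for 4 in sham, against 10.4% and 10.2% of all genes, and downward for 3 and upward for 4 after TAC, against 10.7% and 13.2%.

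**Figure D3:**
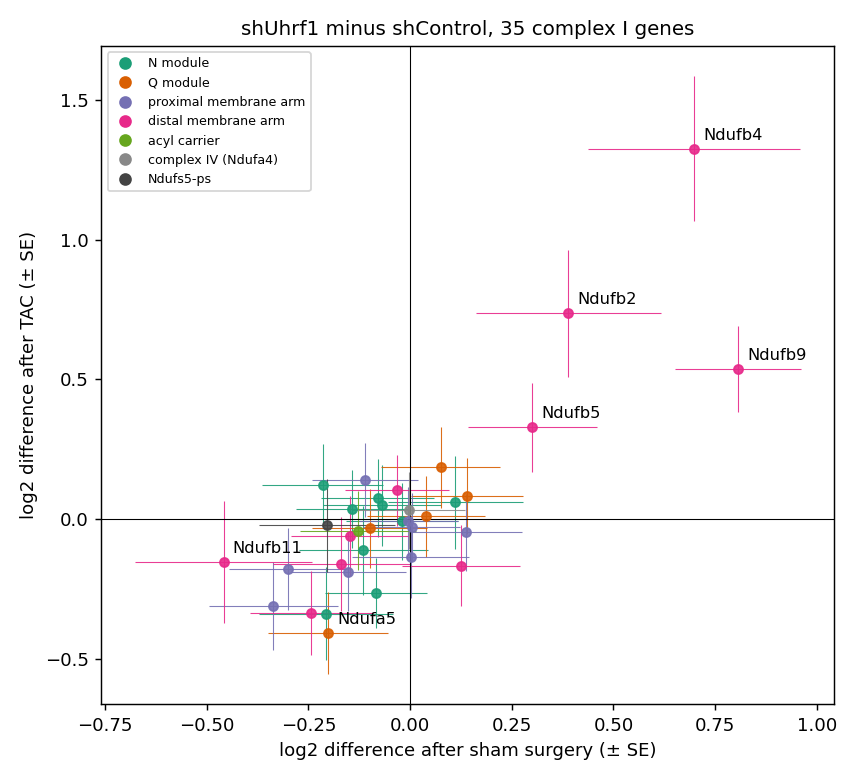
Log2 difference of shUhrf1 minus shControl in sham (horizontal axis) and after TAC (vertical axis) for the 35 genes, coloured by module; bars are ± SE from 3 against 3 arrays each. Most genes lie within 0.5 of 0, and Ndufb4, Ndufb9, Ndufb2 and Ndufb5, 4 of the 10 distal membrane arm genes, lie to the upper right.

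Ndufb4, an accessory subunit of the distal membrane arm, had the largest difference of the 35 genes after TAC, and in sham it came after Ndufb9. Its values were 8.10, 7.36 and 7.67 in sham shControl, 7.21, 7.62 and 7.36 in TAC shControl, 8.43, 8.21 and 8.59 in sham shUhrf1 and 8.10, 8.84 and 9.23 in TAC shUhrf1. All shUhrf1 arrays lay above all shControl arrays of the same surgery. The Ndufb4 intensities before normalization were low, at 231.6, 218.7 and 330.5 in TAC shControl and 382.1, 616.1 and 1090.7 in TAC shUhrf1. After TAC Ndufb4 rose with the hairpin by 1.33 ± 0.26 (SE, 2.51-fold, 95% interval 0.76 to 1.89, adjusted p = 0.0251), and in sham the difference was 0.70 ± 0.26 (adjusted p = 0.253). The call after TAC was lost without TAC shControl replicate 2 or 3 (adjusted p = 0.0757 and 0.0790) and without TAC shUhrf1 replicate 2 or 3 (adjusted p = 0.0820 and 0.0904), and in these 4 fits the difference was 1.07 to 1.44. It was 0.77 in the authors' value table (adjusted p = 0.0375), and the call was also lost without the filter on dim probes (adjusted p = 0.0807). The reference annotation also holds genes named Ndufb4b and Ndufb4c, so the probe may take signal from these related genes.

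Ndufb9 had values of 10.97, 10.75 and 11.15 in sham shControl, 10.93, 11.01 and 11.38 in TAC shControl, 11.73, 11.67 and 11.88 in sham shUhrf1 and 11.59, 11.58 and 11.75 in TAC shUhrf1. The 6 shUhrf1 arrays all lay above the 6 shControl arrays. The differences were 0.81 ± 0.15 in sham (1.75-fold, adjusted p = 0.0741) and 0.54 ± 0.15 after TAC (1.45-fold, adjusted p = 0.0802), and neither passed, although in the authors' value table both did (adjusted p = 0.0476 and 0.0473). Ndufb2, a small subunit with 1 membrane span, had values of 9.73, 9.48 and 9.62 in TAC shControl and 9.80, 10.47 and 10.78 in TAC shUhrf1, which did not overlap. It differed by 0.39 ± 0.23 in sham (adjusted p = 0.471) and by 0.74 ± 0.23 after TAC (adjusted p = 0.100), and passed without TAC shUhrf1 replicate 1 (1.02, adjusted p = 0.0209) and with arrays scaled by their median (1.07, adjusted p = 0.0499). Ndufb5, a neighbour of the same arm, had values of 11.38, 10.92 and 11.52 in sham shControl, 11.04, 11.28 and 11.21 in TAC shControl, 11.56, 11.57 and 11.59 in sham shUhrf1 and 11.37, 11.54 and 11.61 in TAC shUhrf1. The shUhrf1 arrays lay above the shControl arrays of the same surgery, with differences of 0.30 ± 0.16 and 0.33 ± 0.16 that did not pass.

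**Figure D4:**
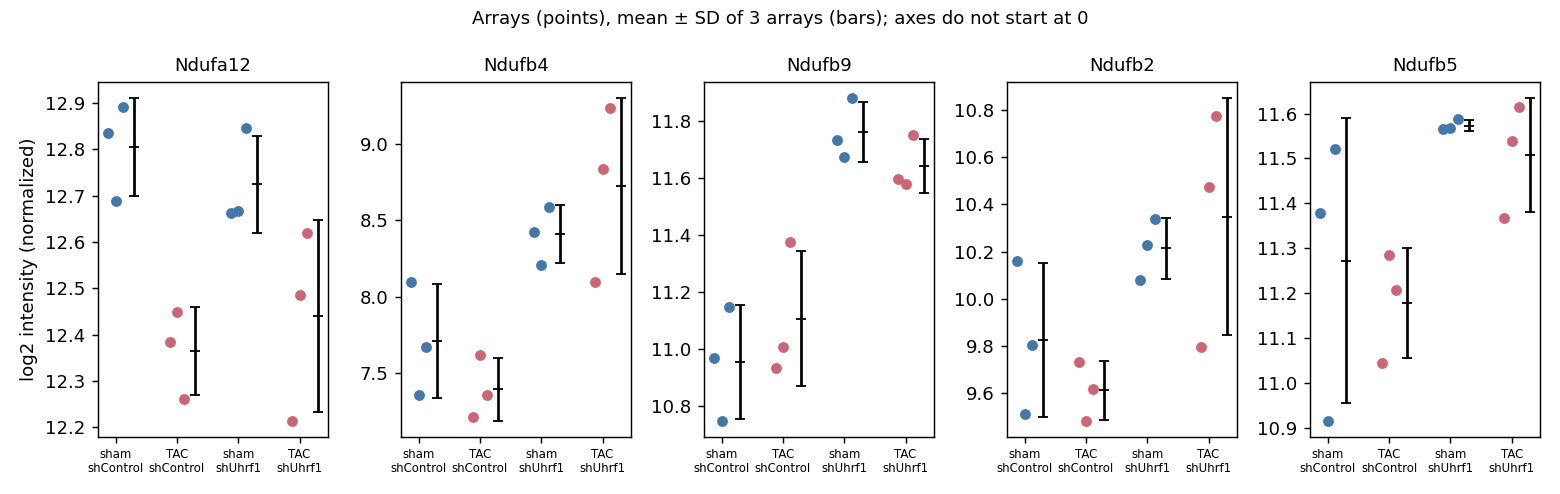
Normalized log2 intensity (vertical axis, not starting at 0 and not shared between panels) of Ndufa12, Ndufb4, Ndufb9, Ndufb2 and Ndufb5 in the 4 groups; points are the 3 arrays and bars the mean ± SD. Ndufa12 is lower after TAC in both hairpin groups. The other 4 genes have higher means with shUhrf1 in each surgery, with overlapping sham arrays for Ndufb2.

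On the lower side, Ndufa11, a proximal membrane subunit, had values of 13.02, 12.95 and 13.07 in sham shControl and of 12.69, 12.62 and 12.72 in sham shUhrf1. The arrays did not overlap, and the difference was -0.34 ± 0.16 (adjusted p = 0.365). After TAC Ndufa5 differed by -0.41 ± 0.15 (adjusted p = 0.150) and Ndufb3 by -0.34 ± 0.15 (adjusted p = 0.242) between the hairpins, and Ndufa6 by -0.26 ± 0.13 (adjusted p = 0.271). The arrays of these 3 genes did not overlap after TAC. The core subunits Ndufv1, Ndufv2, Ndufs3, Ndufs7 and Ndufs8 differed by -0.10 to 0.11 in sham and by -0.03 to 0.18 after TAC, none with an adjusted p under 0.05.

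The hairpin comparisons in sham and after TAC share no array either. Both were below 0 for 16 of 35 genes (45.7%, against 29.5% of all genes), both above 0 for 8 (22.9%, against 31.2%) and opposite for 11. Averaged over both surgeries, a comparison added after the data were seen, the median was -0.02 against -0.01 for all genes. In it 2 genes rose and 0 fell, against 4.38% of all genes called: Ndufb4 by 1.01 ± 0.18 (SE, n = 6 against 6, 2.02-fold, adjusted p = 0.0104) and Ndufb9 by 0.67 ± 0.11 (1.59-fold, adjusted p = 0.00714). Both passed under each of 22 alternatives, those that left out 1 array included, with Ndufb4 at 0.58 in the authors' value table. Among the cardiomyocyte markers the calcium-handling genes Pln (0.64 ± 0.12, adjusted p = 0.0123) and Ryr2 (0.46 ± 0.10, adjusted p = 0.0191) also rose in this average, and their part in these values was not tested. By limma, 9 of the 35 genes had an unadjusted p under 0.05, against 21.8% of all genes. Besides Ndufb4 and Ndufb9 these were Ndufb2 (0.56 ± 0.16) and Ndufb5 (0.31 ± 0.11) on the higher side. On the lower side they were Ndufa11, Ndufa5, Ndufb3, Ndufa7 and Ndufa3, from -0.32 to -0.24.

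The difference between the TAC responses in shUhrf1 and in shControl was tested directly. By limma 0 of the 35 genes passed, and 0% of all genes did. At an unadjusted p under 0.05 there were 0 of the 35 and 866 of 8746 genes. The set's median was 0.02 against 0.03 for all genes, with 14 genes below 0. It was 0.46 against 0.26 with arrays scaled by their median and 0.31 against 0.11 with the median of detected probes. The smallest p belonged to Ndufb4, with 0.63 ± 0.37 (95% interval -0.17 to 1.42, adjusted p = 0.623), followed by Ndufs6 at 0.34 ± 0.21 (-0.12 to 0.79, adjusted p = 0.648) and Ndufb10 at -0.29 ± 0.20 (-0.73 to 0.15, adjusted p = 0.693). The sign for Ndufb10 turned when all probes of a gene were averaged or when arrays were scaled by a median. These intervals include differences as large as the TAC responses themselves, so the spread of 3 arrays a group does not show that the responses were alike.

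Several genes had more than 1 probe, which measures the same gene at another place. Of the 35 genes 13 had at least 2 probes past the filter, with 18 dimmer probes in all: Ndufa3, Ndufa5, Ndufa8, Ndufab1, Ndufb10, Ndufb11, Ndufb6, Ndufb8, Ndufc1, Ndufc2, Ndufs4, Ndufs6 and Ndufv3. For TAC in shControl all 18 dimmer probes lay below 0, as the brightest probes of these genes did, and 2 of them passed. These were a probe of Ndufs6 (-0.70 ± 0.17, adjusted p = 0.0131) and a probe of Ndufab1 (-0.42 ± 0.13, adjusted p = 0.0403). For TAC in shUhrf1 11 of 18 lay below 0, 10 had the sign of the brightest, and 1 passed, a probe of Ndufa3 (-0.58 ± 0.16, adjusted p = 0.0498). The dimmer probe of Ndufb6 differed by -0.70 ± 0.23 in shControl (adjusted p = 0.0553) and by 0.0043 in shUhrf1.

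For the hairpin, 11 of 18 dimmer probes had the sign of the brightest after TAC and 8 of 18 in sham. The brightest probe of Ndufa5 gave -0.41 after TAC, and its dimmer probe rose by 1.04 ± 0.23 (adjusted p = 0.0348). A dim probe of Ndufc2, a proximal membrane subunit, gave 1.22 ± 0.31 (adjusted p = 0.0568) where the brightest gave -0.19. All 3 dimmer probes of Ndufs4, an accessory subunit needed for a stable N module, lay above 0 with the hairpin in sham, from 0.22 to 0.46, while the brightest gave -0.14, and none of them passed. No probe sequences were used here, so which transcripts these probes read is not known.

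The mitochondrially encoded core subunits had 5 genes on the array. For TAC against sham 3 of the 5 lay below 0 in shControl (median -0.02) and 5 in shUhrf1 (median -0.46), and 0 passed in either. In the TAC difference averaged over both hairpins, only ND6 passed by limma (-0.86 ± 0.24, adjusted p = 0.0183). ND4L differed strongly with the hairpin: its values were 11.46, 11.56 and 11.50 in sham shControl and 11.73, 11.83 and 11.71 in TAC shControl, against 13.51, 12.97 and 13.54 in sham shUhrf1 and 12.91, 13.31 and 13.49 in TAC shUhrf1. The 6 shUhrf1 arrays lay above the 6 shControl arrays, and ND4L rose by 1.84 ± 0.18 in sham (adjusted p = 0.00209) and by 1.48 ± 0.18 after TAC (adjusted p = 0.00481). ND6, the ND gene on the other strand of the mitochondrial genome, rose by 1.82 ± 0.34 after TAC (adjusted p = 0.0198) and differed by 1.61 ± 0.34 in sham (adjusted p = 0.0981). ND1 and ND4 did not pass in either surgery, at 0.10 ± 0.17 and 0.21 ± 0.15 in sham and -0.37 ± 0.17 and -0.15 ± 0.15 after TAC, nor did ND5 (-0.32 ± 0.46 and -1.17 ± 0.46). ND4L overlaps the start of ND4 on the mitochondrial genome, and which strand these probes read is not known here. With the hairpin after TAC, Sdhd of complex II (0.86 ± 0.17, adjusted p = 0.0275) and Atp5a1 of complex V (1.07 ± 0.19, adjusted p = 0.0195) were also higher, while 0 of 15 assembly factors, 0 of 7 complex III and 0 of 13 complex IV genes passed. In the same comparison 4 of 11 endothelial and 1 of 10 fibroblast markers fell, and their part in these values was not tested.

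Across the 12 arrays the complex I genes followed each other to unequal degrees. The Pearson correlation of a gene with the mean of the other 34 was highest for Ndufa12 (0.89), Ndufs6 (0.86), Ndufs7 and Ndufs8 (both 0.84). It was lowest for Ndufb9 (-0.10), Ndufa10 (0.0012), Ndufb4 (0.12), Ndufb2 (0.31) and Ndufb5 (0.35), and all of these but Ndufa10 are the 4 genes with the highest differences in the averaged hairpin comparison. Among all tested genes outside the set, the mean of the 35 was matched most closely by Oxld1 (0.94), Mettl14, a subunit of the RNA methyltransferase that writes m6A (0.94), and Kptn, a regulator of nutrient signalling to mTORC1 (0.93). Oxld1 fell by 0.78 after TAC in shControl (adjusted p = 0.0122). These values are descriptions over 12 arrays that share labelling and normalization.

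The size of the TAC difference depended on how arrays were brought to 1 scale, and its position relative to all genes did not change sign. In shControl the set's median was -0.18 with quantile normalization of background-corrected values, -0.18 in the authors' value table, -0.29 with arrays scaled by their median and -0.62 with arrays scaled by the median of their detected probes. All genes had medians of -0.04, -0.02, 0.19 and -0.15 in the same order. Relative to all genes the set lay lower by 0.10 to 0.47 in shControl and by 0.15 to 0.31 in shUhrf1 over 11 alternative settings. These settings include the fit on only the groups compared and leave aside the fits without 1 array.

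**Figure D5:**
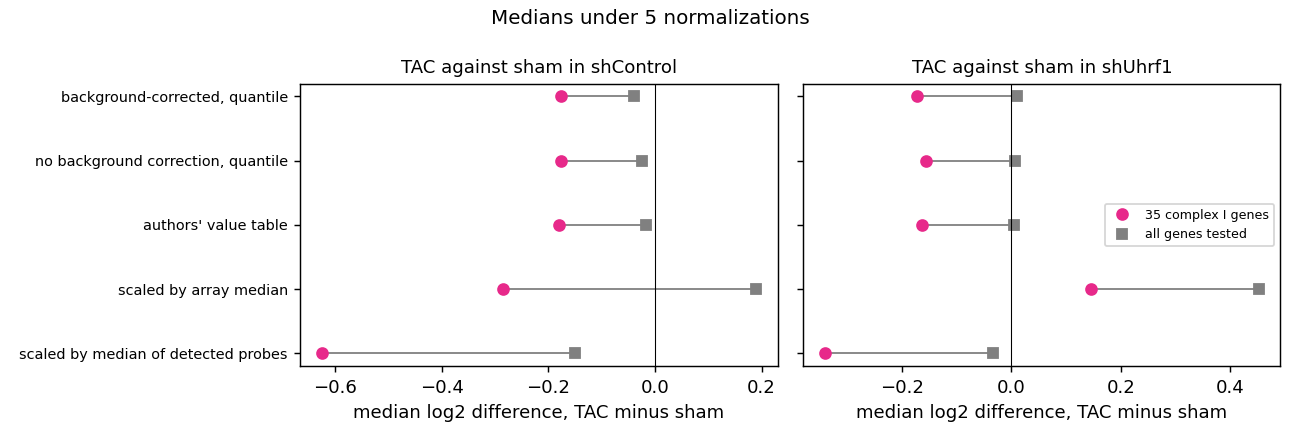
Median log2 difference of TAC minus sham (horizontal axis) of the 35 genes (circles) and of all genes tested (squares) under 5 ways of bringing the arrays to 1 scale (vertical axis), in shControl (left) and shUhrf1 (right). The circle lies left of the square in all 10 pairs, while the circle itself lies right of 0 in shUhrf1 when arrays are scaled by their median (0.15).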

How the data were processed

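Biotinylated cRNA from cardiomyocyte total RNA was measured on Illumina arrays with 1 channel, per the labels' protocols. The deposited non-normalized table holds an intensity on a linear scale for each probe and array. A detection p-value stands beside each intensity, per the file headers. The authors' value table holds log2 values, for which the submitters' processing notes name lumi, with version and settings not given in the sources used here. Its values had a median of 7.50 over all arrays and ranked the probes of each array as the intensities did. It served as an alternative.

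Intensities were background-corrected and quantile-normalized with limma's neqc (offset 16, log2). Probes with a detection p under 0.01 on 3 or more arrays were kept, which left 15118 probes, named through GEO's platform annotation. A gene was represented by its brightest probe. Linear models with a mean for each of the 4 groups were fitted over the 12 arrays in limma 3.58.1 (R 4.3.3) and moderated with eBayes, and p-values were adjusted by Benjamini-Hochberg over all probes tested, with calls under 0.05. Differences are log2 ± SE. The number of arrays limits the precision.

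The members and gene lists were chosen with earlier results of these data known. Named with values were members called in any comparison, core subunits, the 3 members with the smallest p per comparison, members with 2 or more probes, Uhrf1 and the 3 genes most correlated with the members' mean. Ndufa6, Ndufa5 and Ndufb7 in the averaged comparison, Ndufb5 and the other genes beyond this rule were named after their values were seen. Replicate numbers were not taken as pairs. The fits were tested on simulated data.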

Additional observations from a re-analysis of the deposited data

How the results depend on the processing

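The number of complex I genes called for TAC in shControl was 1 as reported. It was 3 without background correction, 2 in the authors' value table, 2 with the mean of a gene's probes, 25 with arrays scaled by the median of detected probes (an alternative chosen after seeing the data, with 24.0% of all genes called), and 0 with arrays scaled by their median, a detection p under 0.05 or only the groups compared. Leaving out 1 array gave 0 to 1. For TAC in shUhrf1 it was 0, and 2 without background correction (6.71% of all genes) and 1 in the authors' table (5.69%). For the hairpin in sham it was 0, and 1 in the authors' table (0.274% of all genes). For the hairpin after TAC it was 1. It was 2 without background correction (4.07% of all genes), in the authors' table (3.09%) and with the median of detected probes (4.61%). With the array median it was 3 (3.45%), without the filter on dim probes 0, and with 1 array left out 0 to 2. For TAC averaged over hairpins it was 4, and 10 without background correction (28.8% of all genes), 0 with the array median (35.3%) and 11 in the authors' table (27.7%). With the mean of probes it was 7, with the median of detected probes 30 (30.4%), and with 1 array left out 1 to 6. For the averaged hairpin it was 2, and 4 without background correction (6.48% of all genes). The set's median moved with the array median to -0.29 and 0.15 for TAC in the shControl and shUhrf1 cells, 0.34 for the hairpin after TAC, 0.46 for the difference of the TAC responses and 0.10 for the averaged hairpin. With the median of detected probes it moved to -0.62, -0.34, -0.27 (hairpin in sham), 0.10, 0.31 and -0.49 (averaged TAC). Ndufb10 turned to 0.0201 for TAC in shUhrf1 with the array median, and its difference of TAC responses to 0.19 with the array median, 0.0706 with the mean of probes and 0.0444 with the median of detected probes. Without Ndufa4 and Ndufs5-ps no count of calls changed. The cause of these shifts was not tested.

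Over all genes, TAC in shUhrf1 gave 485 calls, 2018 with the array median, 238 without the filter and 306 with only the groups compared. The hairpin in sham gave 4, 24 in the authors' table, 0 with only the groups compared and 1 in 3 other settings. The hairpin after TAC gave 253, 55 without the filter and 403 with the median of detected probes. The interaction gave 0, and 1 without the filter. Same-numbered replicates correlated at -0.16 to 0.25 in their deviations from the group means, and the numbers were not taken as pairs. Differently numbered replicates were not correlated, so these values do not show whether the numbers pair the samples. With the replicate number as a block, the counts of complex I calls were the same, 1, 0, 0, 1 and 0 in the 5 comparisons. In that replicate block Ndufa12 missed for TAC in shControl (adjusted p = 0.0581) and Ndufb11 passed (0.0468), and Ndufb7 missed in the averaged TAC comparison (0.0645). A slide could not be used as a block, since the files used here name none. Dim probes near background carry little precision, and Ndufs1 gave no level.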
